A study of Mus musculus with 8 samples.

Results

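The genes described here are a set of interferon-induced factors that restrict viruses or control RNA, in the dorsal hippocampus of mice with and without a vector against Acss2. They are the schlafen genes Slfn8, Slfn2 and Slfn5, the tripartite motif gene Trim30a, the helicase gene Ddx60, the ADP-ribosyltransferase genes Parp14 and Parp9, the ubiquitin ligase gene Dtx3l and the kinase gene Eif2ak2. The rule named 10 genes, of which 9 are described, out of 24498 genes in the table; the ubiquitin ligase gene Rnf213 was not analysed here. They were chosen by their normalized read counts, which earlier results of these data showed to be higher with the knockdown vector. Their difference between vectors is therefore a description: counts of genes passing that contrast are printed beside the share of all genes that pass, and are no test of the 9. The training comparisons, which the choice did not use, are tested.

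ACSS2 makes acetyl-CoA, the acetyl donor of histone acetylation, from acetate. All mice were male C57BL/6J animals of 10 to 12 weeks that received an AAV2/9 vector in the dorsal hippocampus 3 weeks before the experiment. The trained knockdown group (libraries KD.249 and KD.251) and the untrained knockdown group (KD.253 and KD.255) carried a U6-driven hairpin against Acss2 beside CMV-driven EGFP. The trained control group (eGFP.250 and eGFP.266) and the untrained control group (eGFP.254 and eGFP.268), labelled WT, carried CMV-driven EGFP with no hairpin, so the presence of a hairpin RNA and the loss of Acss2 cannot be told apart in this design. Trained mice explored 3 objects in 3 trials of 6 min and were killed 30 min after training, and untrained mice stayed in the home cage. The labels do not say how many mice gave 1 library, so p-values measure only the spread between libraries.

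Interferon made in response to viral RNA or DNA binds its receptor and, through JAK kinases, activates a transcription factor complex that binds a short DNA element in front of many genes. Their products cut, bind or mark viral and cellular RNA, stop translation, or attach ubiquitin or ADP-ribose to proteins. In the brain, microglia, astrocytes, endothelial cells and neurons can all respond to interferon.

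Values are normalized read counts: reads of a gene divided by 1 size factor per library. Reads in genes came to between 6537749 and 9863728 in 6 libraries, but to 1484318 in KD.251 and 272456 in KD.255, where 1 read was worth 2.88 and 15.6 normalized counts. Acss2 itself stood at 25.6 (KD.249) and 57.7 (KD.251) after training with the knockdown vector and at 25.0 (KD.253) and 15.6 (KD.255) without training, against 67.5 to 87.4 in trained and 58.2 to 82.0 in untrained control libraries. The KD.251 value rested on 20 reads (95% exact Poisson interval, counting error only, 35.2 to 89.1) and so reached into the control range. The KD.255 value was 1 read, and its interval (0.39 to 86.7) reached there too. All 8 markers of hippocampal pyramidal and granule cells had reads (Prox1 and Wfs1 among them), with sums of 4044 to 5713 in knockdown and 3931 to 5381 in control libraries. No other tissue was compared, so these reads do not by themselves show that the tissue was dorsal hippocampus.

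Promoter sequence was not itself used in the choice of the genes. They were listed as interferon-induced, however, so the share with an interferon response element is not independent of the choice. The interferon-stimulated response element core, which is GAAA, any 2 bases and GAAA again, searched on both strands, was found in 5 of the 7 genes with an entry in the RefSeq promoter table (250 bases before to 50 after the start, GRCm38.p6). These were Ddx60, Trim30a, Slfn8, Slfn5 and Eif2ak2; Slfn2 and Dtx3l held no match in this window, and Parp9 and Parp14 had no entry. Of all genes with an entry, 3.99% held a match in at least 1 promoter, and over all 32851 promoters 3.44% did. The gamma-activated site, TTCNNNGAA, which reads the same way on both strands, was found in 1 of the 7, Eif2ak2, against 9.55% of all genes and 8.30% of all promoters. No test was made of these shares. A match is a run of letters and not a shown binding site.

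The stretches around the cores are shown because they let the same 10 bases be compared between the genes. Each runs 5′ to 3′ on the strand of its gene, with the core in capitals; TTTC, 2 bases and TTTC is the core read on the opposite strand.
Ddx60 (chr8:61928009-61928102, plus strand): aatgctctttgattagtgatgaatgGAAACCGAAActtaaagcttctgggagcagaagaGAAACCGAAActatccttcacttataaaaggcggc
Trim30a, first start (chr7:104465195-104465254, minus strand): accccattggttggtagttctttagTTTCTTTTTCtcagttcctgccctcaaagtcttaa
Trim30a, second start (chr7:104446089-104446148, minus strand): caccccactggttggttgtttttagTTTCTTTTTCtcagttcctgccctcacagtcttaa
Slfn8 (chr11:83020824-83020883, minus strand): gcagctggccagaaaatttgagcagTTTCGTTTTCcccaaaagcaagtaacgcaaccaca
Slfn5 (chr11:82951922-82951981, plus strand): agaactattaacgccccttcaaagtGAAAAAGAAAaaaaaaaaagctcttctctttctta
Eif2ak2 (chr17:78882523-78882579, minus strand): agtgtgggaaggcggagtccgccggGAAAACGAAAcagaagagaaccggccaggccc

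Ddx60 was the gene with 2 cores, at -53 to -44 and at -19 to -10 from the start base, which is counted as 0. Slfn8 has 2 RefSeq starts, and the same core lay at -48 to -39 from one and at -136 to -127 from the other. The core of Slfn5 lay farther out, at -155 to -146, in a run rich in A, and that of Eif2ak2 lay after the start, at 18 to 27. Trim30a has 2 RefSeq starts in different places; the core lay at -36 to -27 from the first and at 2 to 11 from the second. The sequence after the second start was not found in the GENCODE M21 transcripts of Trim30a, unlike that of every other window of these genes. Compared position by position with no gap allowed, the 2 printed stretches differed at 14 of 60 bases. Before the core they read as shifted against each other, so this count overstates how far the 2 sequences differ.

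**Figure D1:**
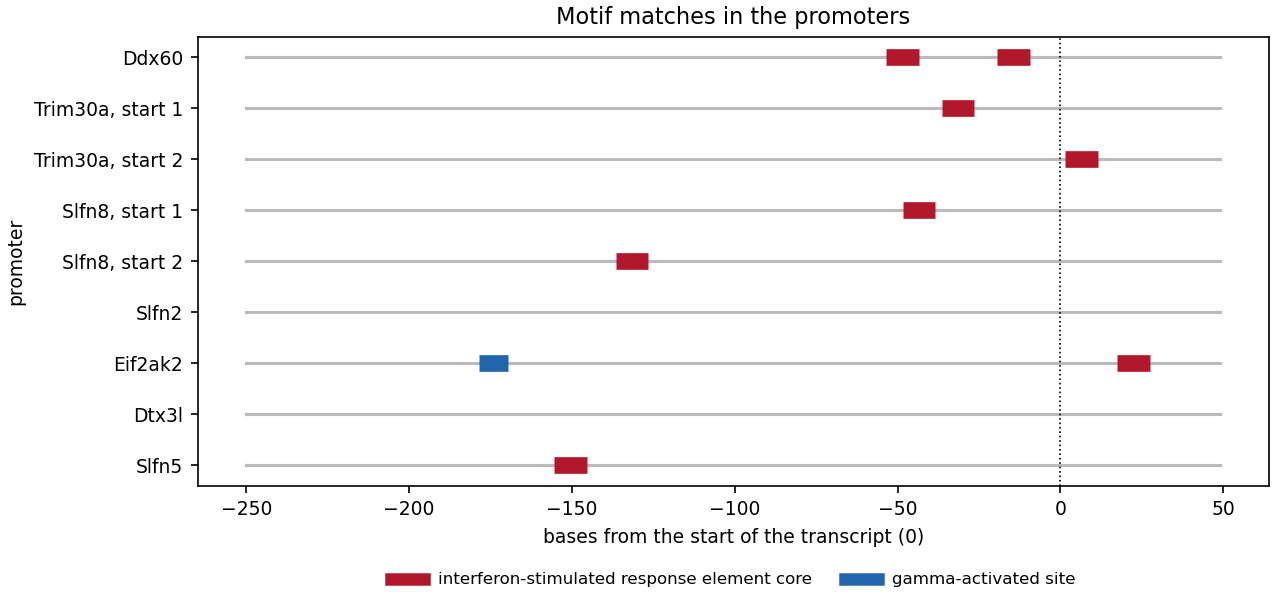
Motif matches in the promoter windows of the 7 genes with an entry (9 windows, since Trim30a and Slfn8 have 2 starts each). The x axis gives bases from the start of the transcript; red bars are interferon-stimulated response element cores and the blue bar is a gamma-activated site. Ddx60 holds 2 cores within 53 bases before its start, and Slfn2 and Dtx3l hold none.

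With the knockdown vector all 9 genes had higher means than with the control vector, from 20.8-fold for Ddx60 to 2.64-fold for Slfn5. Ddx60, Slfn8 and Trim30a formed the top of the range, at 20.8-, 11.6- and 11.5-fold, and Parp14 followed at 8.96-fold. Slfn2 (5.06-fold), Eif2ak2 (4.43-fold), Parp9 (4.09-fold) and Dtx3l (3.82-fold) lay close together. In the fit across all genes the 9 log2 differences ran between 1.33 and 4.18 with a median of 2.05, against a median of -0.035 over all 12681 tested genes. By limma, a linear model on log2 values with p adjusted over all tested genes and a threshold of 0.05, 3 of the 9 passed (Slfn8, Trim30a and Ddx60), where 0.103% of all tested genes passed. On whole reads recovered from the table, 9 of 9 passed by edgeR, where 0.962% of all genes did, and 9 of 9 by DESeq2, where 1.54% did. Library numbers fall into 2 sets. The higher set holds only the control libraries eGFP.266 and eGFP.268, and all knockdown libraries are in the lower set, so the sets are partly confounded with vector. With the sets of library numbers as a term, limma passed 0 of the 9 and 0 of all genes. Since the genes were chosen on this contrast, nothing is read from those counts.

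Among the schlafens, Slfn8 is a long form with a helicase-like part that is found in immune cells. It stood at 186 (KD.249) and 54.8 (KD.251) in trained and 184 (KD.253) and 109 (KD.255) in untrained knockdown libraries, against 11.4 and 14.4 in trained and 8.72 and 11.5 in untrained control libraries. All 4 knockdown libraries lay at least 3.82 times above the highest control library. Slfn2, a short form that keeps mouse T cells and monocytes quiescent, had 81.9 and 17.3 in trained and 81.7 and 31.1 in untrained knockdown libraries, against 6.20 and 12.9 in trained and 15.7 and 7.10 in untrained control libraries. Its lowest knockdown value, in KD.251, was 6 reads and only 1.10 times the highest control value, and its KD.255 value was 2 reads (interval 3.77 to 112). Slfn5, a long form whose human counterpart represses viral transcription in the nucleus, had 198 and 86.5 in trained and 200.4 and 124 in untrained knockdown libraries, against 75.0 and 62.7 in trained and 45.4 and 47.5 in untrained control libraries. It had the highest control level of the 3 schlafens per length and the smallest ratio of all 9 genes.

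The 3 genes lie in 1 schlafen cluster on chromosome 11 (GRCm38): Slfn5 at 82951349 to 82964840, Slfn8 at 83002158 to 83020810 and Slfn2 at 83065112 to 83070678. Slfn9, which lies between them and resembles Slfn8 in sequence, had 63.5 and 8.65 in trained and 40.2 and 31.1 in untrained knockdown libraries, against 3.55 to 4.78 in control libraries. It passed edgeR (log2 difference 3.21, adjusted p = 0.00550) and not limma (2.52, SE 0.64, adjusted p = 0.362). How reads were split between near-identical schlafens is uncertain. The antisense gene Slfn5os overlaps Slfn5 and had no read in any library.

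Trim30a, a mouse protein that dampens signalling to NF-κB, lies on chromosome 7 at 104409025 to 104465193. It stood at 146 and 46.2 in trained and 142 and 93.3 in untrained knockdown libraries, against 6.72 and 13.4 in trained and 9.89 and 7.10 in untrained control libraries. The lowest knockdown value was 3.45 times the highest control value. Ddx60, a helicase that in human cells aids the sensing of viral RNA (chromosome 8, 61928087 to 62038244), stood at 193 and 49.04 in trained and 152 and 156 in untrained knockdown libraries, against 3.62 and 11.0 in trained and 2.91 and 8.87 in untrained control libraries. Its control values rested on 5 to 23 reads per library. It was the lowest of the 9 genes in control tissue and showed the widest gap, 4.46-fold, between the nearest knockdown and control libraries. The control means of Trim30a and Ddx60, 9.27 and 6.60, lay under the mean of 10 that a tested gene needed over all libraries, so this pair entered the fit through the knockdown libraries.

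Parp14, Parp9 and Dtx3l lie near each other on chromosome 16 (35832874 to 35871544, 35938470 to 35972605 and 35926511 to 35939151). PARP14 attaches single ADP-ribose units to proteins, and PARP9 works in a complex with the ubiquitin ligase DTX3L. Parp14 had 354 and 43.3 in trained and 264 and 279.9 in untrained knockdown libraries, against 25.9 and 38.7 in trained and 24.4 and 15.97 in untrained control libraries. KD.251 stood apart here, at 12.2% of KD.249 and only 1.12 times the highest control library. Parp9 had 135 and 31.7 in trained and 96.9 and 93.3 in untrained knockdown libraries, against 28.4 and 18.2 in trained and 21.5 and 19.1 in untrained control libraries. For Dtx3l the values were 261 and 86.5 in trained and 189.8 and 202 in untrained knockdown libraries, against 42.4 and 60.3 in trained and 45.4 and 45.7 in untrained control libraries. The ratios of this pair of partner genes were close, at 4.09 and 3.82. Their annotated spans overlap by 682 bases on opposite strands, and the strand setting of the counting is not given in the sources used here, so reads there cannot be assigned with certainty.

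Eif2ak2 encodes PKR, which is switched on by double-stranded RNA and phosphorylates the initiation factor eIF2 alpha, stopping translation (chromosome 17, 78852564 to 78882573). It stood at 471 and 75.0 in trained and 326 and 342 in untrained knockdown libraries, against 79.1 and 79.9 in trained and 59.3 and 55.9 in untrained control libraries. It was the 1 gene of the 9 whose vectors overlapped, since the 75.0 in KD.251 (26 reads, interval 48.99 to 109.9) lay under both trained control libraries. The other 8 genes had every knockdown library above every control library, as did 2.28% of all tested genes. Within counting error that split was not clean. The KD.251 intervals of Slfn2 (6.35 to 37.7), Slfn5 and Dtx3l (58.4 to 124 each), Parp14 (24.2 to 71.4) and Parp9 (15.8 to 56.8) reached below the highest control values. Those control values were 15.7, 75.0, 60.3, 38.7 and 28.4 in the same order. The KD.251 intervals of Slfn8, Trim30a and Ddx60 stayed above theirs. Without KD.251 the 3 remaining knockdown libraries of Eif2ak2 lay between 326 and 471.

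**Figure D2:**
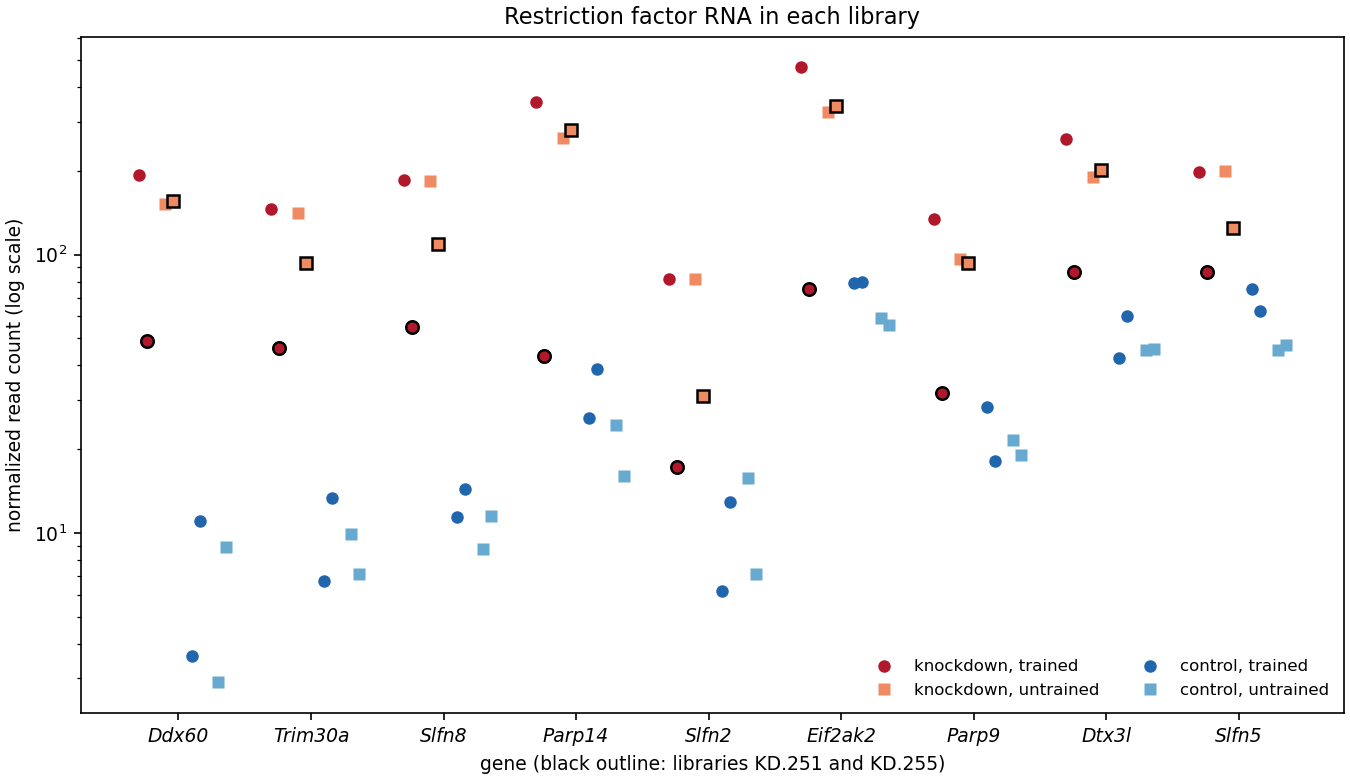
Normalized read count (log scale) of the 9 genes in each of the 8 libraries, genes ordered by their log2 difference between vectors; circles are trained and squares untrained libraries, red and orange the knockdown vector, dark and light blue the control vector. Knockdown libraries lie above control libraries for every gene except that KD.251 lies at 75.0 for Eif2ak2, against 79.9 in the highest control library.

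Per kilobase of exon, Eif2ak2 was the most abundant of the 9 in both vectors, at 59.4 ± 32.4 normalized counts per kilobase with the knockdown vector and 13.4 ± 2.49 with the control vector (SD, n = 4 each). Next in knockdown libraries came Slfn8 (32.6 ± 15.5), Dtx3l (32.3 ± 12.7) and Slfn2 (31.9 ± 20.3), whose means differed by less than their SD. In control libraries the order was different: Slfn5 (9.11 ± 2.20) and Dtx3l (8.46 ± 1.40) followed Eif2ak2, while Slfn8 had 2.81 ± 0.56 and Trim30a 2.26 ± 0.75. Ddx60 was lowest in both, at 15.8 ± 7.13 with the knockdown vector and 0.76 ± 0.46 with the control vector. Lengths were those of the merged exons of GENCODE M21, which need not be the annotation of the counting.

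The libraries did not share 1 level of the response. As the median over the 9 genes of the log2 value relative to the control mean, KD.249, KD.253 and KD.255 stood at 2.94, 2.94 and 2.32, and KD.251 at 0.77, while the control libraries lay between -0.24 and 0.32. In KD.251, Ddx60, Trim30a and Slfn8 were 7.43, 4.98 and 4.77 times their control means. The other 6 were 1.09 to 1.79 times theirs, with Eif2ak2 lowest. Those 3 also had the largest ratios over all knockdown libraries. As a share of the mean of the other knockdown libraries the order was different: Slfn5 49.7%, Dtx3l 39.8%, Trim30a 36.3%, Slfn8 34.4%, Ddx60 29.4%, Parp9 29.3%, Slfn2 26.7%, Eif2ak2 19.7% and Parp14 14.5%. The KD.251 values rested on 6 (Slfn2) to 30 (Slfn5 and Dtx3l) reads in 1 library. KD.251 also had the Acss2 value nearest to the controls, but the interval of the 1 Acss2 read in KD.255 (0.39 to 86.7) reached into the control range as well. A link between Acss2 and the levels of the 9 genes was not tested. The 2 deep knockdown libraries, KD.249 (trained) and KD.253 (untrained), had ratios between 0.986 and 1.03 for the 3 schlafens and Trim30a, and between 1.27 and 1.44 for Ddx60, Parp14, Parp9, Dtx3l and Eif2ak2. With 1 library each, that split has no replicate check.

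**Figure D3:**
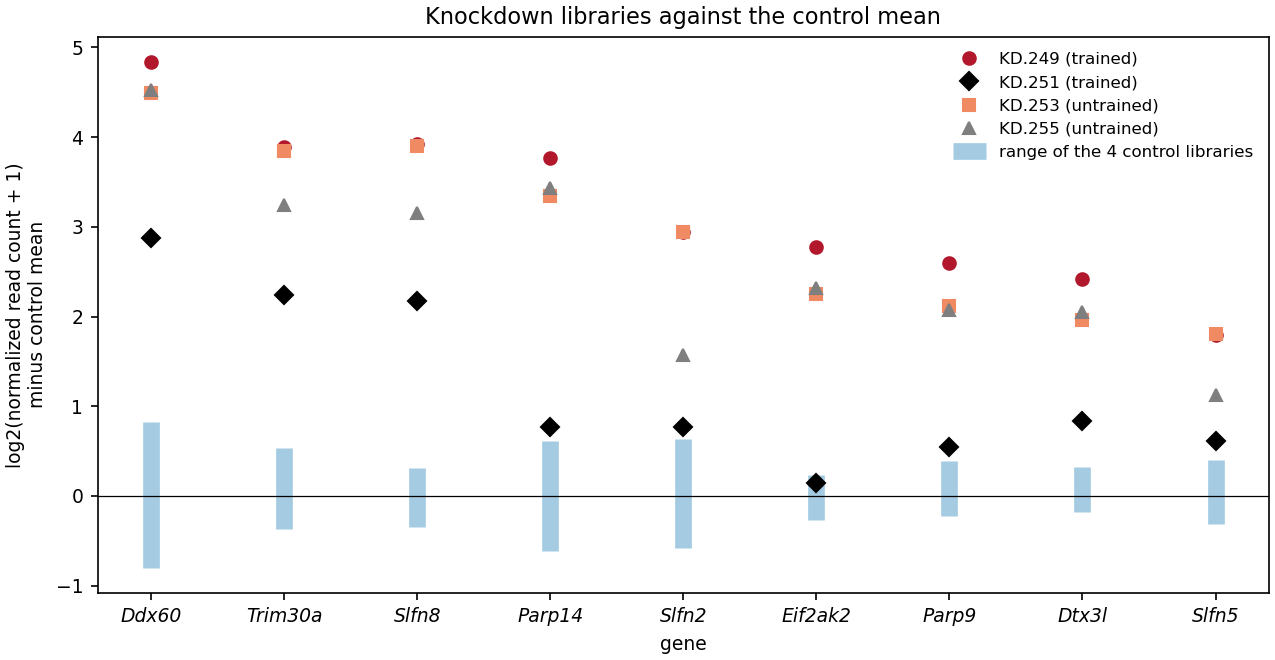
Log2(normalized read count + 1) of each knockdown library minus the mean of the 4 control libraries, by gene; blue bars span the control libraries. KD.251 (black) is the lowest knockdown library for every gene and lies inside the control range for Eif2ak2.

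The same contrast was split by training state. In trained mice the 9 log2 differences ran from 0.92 (Slfn5) to 3.73 (Ddx60) with a median of 1.94, against -0.005 over all tested genes. In untrained mice they ran from 1.75 (Slfn5) to 4.64 (Ddx60) with a median of 2.52, against -0.046 over all tested genes. Without both shallow libraries (KD.251 and KD.255) the medians were 3.05 in trained and 2.83 in untrained mice. Without KD.249, which leaves KD.251 alone for the trained knockdown group, the trained median was 0.76 and the difference of Eif2ak2 was -0.083. Limma called 0 of the 9 in either state, where it called 0.00789% (trained) and 0% (untrained) of all tested genes. An unadjusted p under 0.05 by limma was held by 8 of the 9 in trained and 9 in untrained mice. Of all 12681 tested genes 299 and 571 had such a p. edgeR called 0 of the 9 in trained (0.0315% of all genes) and 3 in untrained mice (0.181%), and DESeq2 4 (0.26%) and 6 (0.434%). The genes were chosen on this contrast, so these counts are no test of them and support nothing.

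Training asked whether 30 min after object exploration changes RNA in the hippocampus, with either vector. None of the 9 genes passed in any training comparison, where limma and edgeR also called 0% of all tested genes; DESeq2 called 0 of the 9 as well (0.0631% of all genes averaged over the vectors, 0.0315% with the control vector), and 0 were at an unadjusted p under 0.05 by limma, edgeR or DESeq2. With the knockdown vector the 9 log2 differences, trained minus untrained, lay between -1.12 (Parp14) and -0.27 (Slfn5), with a median of -0.48, against 0.037 over all genes (limma adjusted p between 0.807 and 0.939). All 9 were below 0, but the sign did not hold without the shallow libraries: without both shallow libraries 8 of 9 were above 0, between 0.0029 (Slfn2) and 0.53 (Eif2ak2). The 95% intervals of the 9 reached from -2.87 to 1.50 and so do not show that levels were alike.

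With the control vector, where all 4 libraries were deep, the differences lay between -0.22 (Slfn2) and 0.65 (Parp14), with a median of 0.26, against 0.014 over all genes (limma adjusted p = 1.00 for each). Slfn5 had 75.0 and 62.7 in trained and 45.4 and 47.5 in untrained libraries, a log2 difference of 0.55 (SE 0.41, 95% interval -0.37 to 1.47). Eif2ak2 had 79.1 and 79.9 in trained and 59.3 and 55.9 in untrained libraries, a difference of 0.46 (SE 0.66). Slfn5, Eif2ak2 and Parp14 had both trained libraries above both untrained ones, which 14.5% of all tested genes had. Averaged over the vectors the median was -0.18, with adjusted p between 0.936 and 0.981.

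The difference between the training responses, knockdown vector minus control vector, was below 0 for all 9 genes, from -1.78 (Parp14) to -0.19 (Slfn2), and did not pass for any (limma adjusted p = 1.00 for each). Without both shallow libraries the median was 0.069 in place of -0.80. Without KD.251 alone, 9 of 9 training differences with the knockdown vector and 7 of 9 differences between the responses were above 0.

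**Figure D4:**
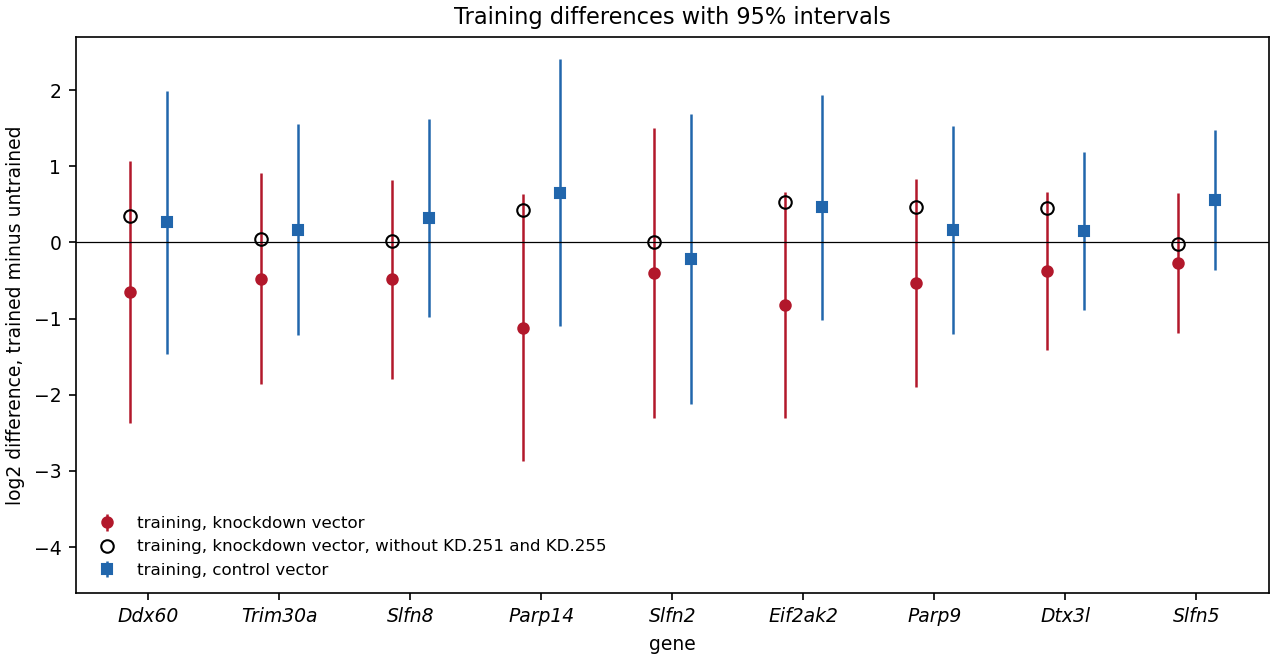
Log2 difference between trained and untrained libraries for the 9 genes, with 95% intervals from limma, for the knockdown vector (red) and the control vector (blue); open circles give the knockdown vector without KD.251 and KD.255. Every interval crosses 0, and the open circles lie near or above 0 while the red points lie below it.

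Relatives of these genes were taken from lists based on family and pathway, and were tested between vectors with the knockdown averaged over training. By edgeR 0.962% and by limma 0.103% of all tested genes passed this contrast. An unadjusted p under 0.05 by limma was held by 709 of all 12681 tested genes. Slfn9, Trim30d, Parp10, Isg15, Usp18 and Irf7, named here as called by edgeR, had control means under 10 and entered the fit through the knockdown libraries, so the counts per list are descriptions, and no test compared the lists. Of the 12 listed Trim genes in the table, 8 were tested and 5 rose by edgeR (Trim30d, Trim25, Trim12a, Trim12c and Trim21); Trim30d, next to Trim30a, averaged 48.8 ± 25.2 with the knockdown and 8.76 ± 1.60 with the control vector (SD, n = 4 each; edgeR log2 difference 2.51, adjusted p = 0.00975). Trim25, a ligase that activates the sensor RIG-I in human cells, averaged 118 ± 35.2 and 32.3 ± 7.71 in the same order of vectors (1.91, adjusted p = 0.00504). By limma 0 of the 8 passed, with 6 at an unadjusted p under 0.05.

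Of 14 further PARP genes, 3 rose by edgeR and 0 by limma (2 at an unadjusted p under 0.05), with a list median of 0.30. They were Zc3hav1, the antiviral zinc finger protein that binds viral RNA (95.4 ± 44.8 with the knockdown and 28.2 ± 3.34 with the control vector, edgeR adjusted p = 0.00573), Parp3, which acts in DNA repair (62.8 ± 21.4 and 21.4 ± 6.36, adjusted p = 0.0352), and Parp10 (adjusted p = 0.0344), whose KD.255 value was 0. The other 11, among them the DNA repair enzyme Parp1 and the tankyrases, did not pass. No Deltex relative of Dtx3l passed edgeR or limma (0 of 4, with 0 at an unadjusted p under 0.05 by limma): Dtx4 differed by -0.28 and Dtx2 by -0.91 with a KD.255 value of 0. Over all tested genes 0.962% passed edgeR and 0.103% limma, so 0 of 4 lies near those shares.

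The eIF2 alpha kinase pathway around Eif2ak2 had 0 of 11 genes passing limma, edgeR or DESeq2 and 0 at an unadjusted p under 0.05 by limma, with differences from -0.32 to 0.40 and a median of -0.06. Over all tested genes 0.103%, 0.962% and 1.54% passed, so 0 of 11 lies near those shares. The feedback phosphatase subunit gene Ppp1r15a differed by 0.40 (SE 0.25) and the stress transcription factor gene Ddit3 by 0.34 (SE 0.30). The 3 other kinases of eIF2 alpha, chosen for naming after their values were seen, averaged 488 ± 83.2 and 505 ± 37.1 (Eif2ak1), 193 ± 26.4 and 176 ± 45.7 (Eif2ak3) and 132 ± 27.9 and 158 ± 12.99 (Eif2ak4) with the knockdown and the control vector (SD, n = 4 each). The vector ranges of each of these 3 overlapped, as did those of Eif2ak2 through KD.251.

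Among 11 RNA helicases and cofactors, the sensors of viral RNA Ddx58 (RIG-I) and Ifih1 (MDA5) rose by edgeR (log2 difference 2.73 and 2.60, adjusted p = 0.0102 and 0.00573), and the other 9 did not pass. Limma called 0 of the 11, with 2 at an unadjusted p under 0.05. In the ISG15 conjugation list, whose products attach or remove the ubiquitin-like protein ISG15, 4 of 5 rose by edgeR (Isg15, Usp18, Herc6 and Ube2l6), with Isg15 at 5.10 (adjusted p = 0.00671) and the protease gene Usp18 at 4.51 (adjusted p = 0.000888). Limma passed 0 of these 5, with 4 at an unadjusted p under 0.05.

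Upstream of the genes in the pathway, the interferon ligands had few or no reads at this depth. Of 12 listed ligand genes 10 had no read in any library, and 2 reads in all fell in knockdown libraries (1 in Ifnb1, 1 in Ifng) and 0 in control libraries. Of 13 tested receptor and signalling genes 3 rose by edgeR, among them Irf7 (4.43, adjusted p = 0.000568) and Irf9 (1.83, adjusted p = 0.00862); limma passed only Irf7 (3.96, SE 0.48, adjusted p = 0.0210). The type I receptor genes Ifnar1 and Ifnar2, chosen for naming after their values were seen, differed by 0.07 (SE 0.15) and 0.02 (SE 0.23).

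**Figure D5:**
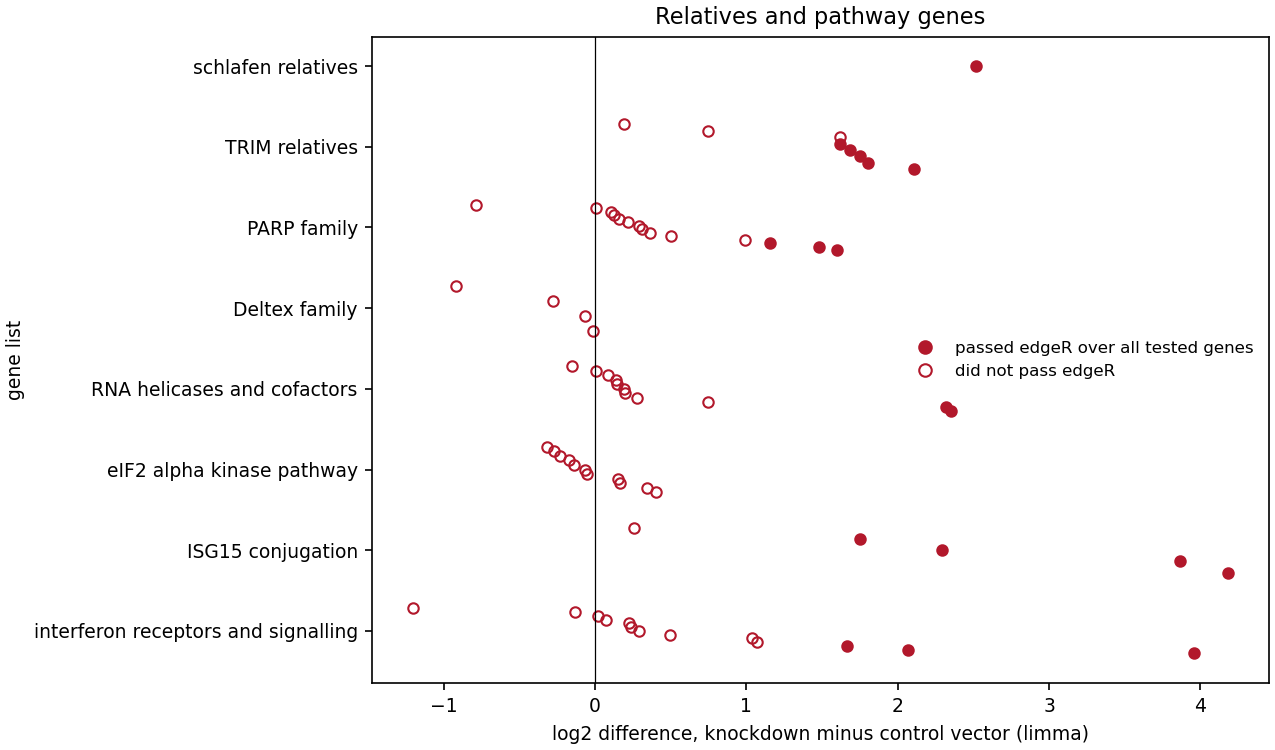
Log2 difference between the knockdown and the control vector (limma) for each tested gene of 8 lists of relatives and pathway genes; filled points passed edgeR over all tested genes. Filled points lie at 1.15 and above, and the eIF2 alpha kinase and Deltex lists hold none. Since 0.962% of all tested genes passed edgeR, a list of this size with none lies near that share.

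Position along the chromosome was compared with the differences. Within 200000 bases of the 9 genes lay 21 other tested protein-coding genes outside the schlafen and Trim families. Their log2 differences ran from -1.21 (Wdr5b) to 0.48 (Rffl) with a median of 0.047. Limma, edgeR and DESeq2 called 0 of them. Over all tested genes 0.103%, 0.962% and 1.54% passed, so 0 of 21 lies near those shares. At an unadjusted p under 0.05 were 0 by limma and 0 by edgeR, against 709 and 996 of all 12681 tested genes. Kpna1, which follows Parp9 on chromosome 16, differed by 0.23 (SE 0.12), and Palld, beside Ddx60, by 0.07 (SE 0.26). The 5 schlafen and Trim neighbours had differences from 1.62 to 2.52, and 4 of them passed edgeR, as did 0.962% of all tested genes. Among these 5, Slfn9, Trim34a and Trim30d had control means of 4.28, 6.88 and 8.76 and entered the fit through the knockdown libraries. The counts are therefore descriptions, and no test compared the neighbours.

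Genes with the most similar profile were found by correlating each tested gene's log2 value with the mean of the 9 genes over the 8 libraries. Closest were the interferon-induced GTPase gene Igtp (Pearson r = 0.997), the antiviral Ifit2 (0.995), the guanylate-binding protein gene Gbp3 (0.990), Slfn9 (0.990) and Gbp7 (0.989). Igtp, for example, stood at 179 and 34.6 in trained and 155 and 124 in untrained knockdown libraries, against 12.9 and 19.1 in trained and 9.89 and 12.9 in untrained control libraries. These coefficients describe libraries that fall into 2 vectors and share depth, so no p is given; 134 genes outside the 9 had r above 0.9.

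Of the summed markers of other cell types, those of microglia did not overlap between the vectors, nor, by a narrow margin, did those of T and NK cells. Of single tested genes, 2.28% had every knockdown library above every control library, and no such share was computed for sums. All 12 microglia markers were higher with the knockdown vector. Of these, 2 rose by edgeR and 0 by limma, where 0.962% and 0.103% of all tested genes passed. The summed value of the microglia markers was 1529 to 2255 in knockdown and 1102 to 1323 in control libraries, with KD.251 lowest among the knockdown libraries. T and NK cell markers, 11 in the table with none tested, summed to 5.77 to 62.2 in knockdown and 2.22 to 5.69 in control libraries (191 reads and 27 reads in all), with Cd8a at 0 in control libraries. Both ends of the knockdown range rested on very few reads. The lowest sum was in KD.251 and the highest in KD.255, where 1 read was worth 2.88 and 15.6 normalized counts. B cell markers summed to 0 to 12.5 in knockdown and 0.957 to 2.33 in control libraries, and monocyte and macrophage markers to 49.04 to 156 and 47.9 to 69.8. Astrocyte (24508 to 29737 and 21522 to 27444), endothelial (558 to 871 and 657 to 787) and neuron markers (55891 to 67190 and 62620 to 78030) overlapped between the vectors. All 7 oligodendrocyte markers were higher with the knockdown vector too, with a median log2 difference of 0.27 and 0 called by limma or edgeR, and their sums overlapped (15223 to 25598 in knockdown and 10062 to 21574 in control libraries). The top of that knockdown range was KD.251 alone, and the other knockdown libraries reached at most 16859 (KD.255). Choroid plexus markers summed to 261 to 1907 in knockdown and 226 to 59544 in control libraries, with 0 of 6 higher with the knockdown vector (median log2 difference -2.27). Here too KD.251 was the highest knockdown library, followed by KD.255 at 622. Of the neuron markers 1 of 8 was higher (median -0.22), of the astrocyte markers 4 of 7 and of the endothelial markers 3 of 7. Limma and edgeR called 0 in each of these lists, which lies near the shares over all tested genes. The part of these cells in the levels of the 9 genes was not tested, and in tissue RNA fewer or more cells of a type and less or more RNA per cell cannot be told apart.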

How the data were processed

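Polyadenylated RNA from the dorsal hippocampus was sequenced from ScriptSeq v2 libraries on a NextSeq 500, per the labels' protocols. The authors deposited a normalized signal per gene and library. The submitters' processing notes name bcl2fastq 02.14.01.07, STAR 2.3.0, HTSeq 0.6.1, DESeq, bedtools and the build mm10; the annotation or strand setting was not given in the sources used here. Dividing each column by its smallest deposited value above 0 gave whole numbers for 100% of values (relative tolerance 1e-06), and these were taken as reads. The 5 summary entries of the counter stayed out of library sizes and tests; per library 16.4% to 20.3% of reads fell in no gene. Column names give the group and a library number that the labels do not hold.

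Log2(value + 1), a scale that understates the change of low genes, was tested in limma 3.58.1 under R 4.3.3, with the prior variance following mean level. Genes averaging under 10 normalized counts were left out, leaving 12681. A model of 4 group means served the comparisons within groups and an additive model the averaged ones. Benjamini-Hochberg adjustment ran over all tested genes with a threshold of 0.05. edgeR 4.0.16 (quasi-likelihood, TMM) and DESeq2 1.42.0 were run on the recovered reads, and all were tested on simulated data. Intervals of 95% for single values are exact Poisson intervals.

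All 9 genes were named throughout, from each list the genes called and the 2 with the largest difference, and the 5 most similar genes. Some results that this rule names are not reported here. The genes and lists were chosen with earlier results of these data known. Promoter sequences are from RefSeq (GRCm38.p6); coordinates of genes are from GENCODE M21 (GRCm38).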

Additional observations from a re-analysis of the deposited data

How the results depend on the processing

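No paired analysis was possible because the columns carry library numbers and not the replicate numbers of the labels. For the averaged knockdown, 3 members and 13 genes passed limma, against 9 and 122 by edgeR, 9 and 195 by DESeq2, 9 and 212 without both shallow libraries (KD.251, KD.255; median 2.94) and 0 and 0 with the sets of library numbers as a term. Leaving out single libraries gave 0 to 8 members and 1 to 100 genes; the 8 and 100 were without KD.251, and no member passed without KD.249, KD.253, eGFP.250, eGFP.254 or eGFP.268. In trained mice the counts of members and genes were 0 and 1 by limma, 0 and 4 by edgeR, 4 and 33 by DESeq2 and 7 and 79 without both shallow libraries (median 3.05); 0 genes passed with no filter and 2 with the sets as a term. Single omissions gave 0 to 2 members, 0 to 11 genes, a median from 0.76 to 3.05 and, for Eif2ak2, -0.083 to 2.55. In untrained mice the counts were 0 and 0 by limma, 3 and 23 by edgeR, 6 and 55 by DESeq2, 7 and 67 without both shallow libraries and 1 gene with a pseudocount of 10, and single omissions gave 0 to 5 members and 0 to 1293 genes, the highest without KD.253, which leaves the shallowest library alone.

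For training, members called stayed at 0 under every setting run. DESeq2 called 8 genes for the averaged training and 4 with the control vector. With the knockdown vector, single omissions gave 0 to 1242 genes and a median from -1.49 to 0.39. Without both shallow libraries the median was 0.34, and the values that changed sign were 0.015 (Slfn8), 0.0029 (Slfn2), 0.047 (Trim30a), 0.34 (Ddx60), 0.42 (Parp14), 0.47 (Parp9), 0.46 (Dtx3l) and 0.53 (Eif2ak2). Single omissions ranged from -1.35 to 0.39 (Slfn8), -1.49 to 0.69 (Slfn2), -0.86 to 0.32 (Slfn5), -1.30 to 0.35 (Trim30a), -1.63 to 0.33 (Ddx60), -2.62 to 0.38 (Parp14), -1.55 to 0.50 (Parp9), -1.17 to 0.41 (Dtx3l) and -2.14 to 0.49 (Eif2ak2). With the control vector they ranged from -0.74 to 0.31 (Slfn2), -0.28 to 0.62 (Trim30a), -0.43 to 0.95 (Ddx60), -0.15 to 0.47 (Parp9) and -0.10 to 0.40 (Dtx3l). For the interaction the median was 0.069 without both shallow libraries, with changed signs at 0.22 (Slfn2), 0.082 (Ddx60), 0.31 (Parp9), 0.31 (Dtx3l) and 0.069 (Eif2ak2). Single omissions gave 0 to 710 genes, a median from -1.67 to 0.070, and -1.67 to 0.070 (Slfn8), -1.28 to 0.90 (Slfn2), -1.47 to 0.18 (Trim30a), -1.89 to 0.067 (Ddx60), -1.71 to 0.34 (Parp9), -1.32 to 0.26 (Dtx3l) and -2.60 to 0.035 (Eif2ak2). The cause of these changes was not tested beyond the fewer libraries each setting holds.

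Ratios between vectors kept their direction for all 9 genes with TMM scaling. With the 250 bases before the start alone, 4 of the 7 genes held the response element core. Depth limits KD.255 most, where a count of 0 allows up to 46.7 normalized counts.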

Other observations

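Some of the schlafen and Trim genes with too few reads to be tested held more reads in the deep knockdown libraries. Slfn1, the founding member of the schlafen family, had 43 reads in KD.249 and 1 in KD.251 (knockdown, trained) and 32 in KD.253 and 0 in KD.255 (knockdown, untrained), against 0 and 2 in trained and 1 and 2 in untrained control libraries. Trim5 had 35 and 2 reads in trained and 21 and 1 in untrained knockdown libraries, against 3 and 4 in trained and 9 and 2 in untrained control libraries. Slfn4 had 6 reads over the knockdown and 0 over the control libraries, and Slfn3 24 and 15. Others did not: Slfnl1 had 1 read over the knockdown and 2 over the control libraries, and Trim34b had 0 in both. These genes were chosen for naming after their values were seen, and no test was made. Similar copies of these genes share reads, so each value is uncertain.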
